A study of Homo sapiens with 2 samples.

Results

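The mRNAs of the nuclear-encoded subunits of the respiratory chain and ATP synthase were compared between both RNA sequencing libraries of FaDu cells, an established line grown from a hypopharyngeal squamous carcinoma. Members were all rows of the deposited gene table whose symbol marks a subunit of complexes I to V (NDUFA, NDUFB, NDUFC, NDUFS, NDUFV, SDHA to SDHD, UQCR, CYC1, COX4 to COX8 and ATP5). The rule took 88 of 16951 genes. Of these, 86 encode subunits, close relatives of subunits or the ATP synthase inhibitor, and 2 are read-through genes that join a subunit to its neighbour. The rule itself uses symbols and no measured value.

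The labels describe 1 library of cells with an shRNA against KIF2C (shKIF2C) and 1 of control cells (shControl), both marked day 2. KIF2C is a kinesin-13 motor that shortens microtubules, and a short hairpin RNA (shRNA) is an expressed RNA that directs the decay of a matching mRNA. The design text describes a FaDu line carrying the knockdown and cells given an empty vector as its control. It does not say whether the line is a single clone. The deposited columns carry only the codes D1 and C1, which no label ties to a condition.

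KIF2C had 3036 reads in library D1 and 783 in library C1, a log2 ratio of 2.04. Reading C as control and D as knock-down would go against that value, so the libraries are called by their codes and every difference is D1 against C1. No difference below is read as knockdown against control, because that direction is not known. Library D1 held 18560024 estimated reads and library C1 18189742. The epithelial keratins KRT8 and KRT18 were abundant in both, with KRT8 at 2447.08 TPM in D1 and 2829.87 TPM in C1. The squamous markers KRT5, KRT14 and TP63 were higher in D1. KRT5 had 2061.13 TPM in D1 and 336.29 TPM in C1 (log2 ratio 2.77). KRT14 had 429.82 and 54.86 TPM (3.12), and TP63 112.13 and 46.3 TPM (1.42). The leukocyte gene PTPRC had 11 and 15 reads in D1 and C1, and the endothelial gene PECAM1 13 and 12.

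The respiratory chain sits in the inner mitochondrial membrane. Complexes I and II feed electrons from NADH and succinate to ubiquinone, complex III passes them to cytochrome c, and complex IV hands them to oxygen. Complexes I, III and IV pump protons, and complex V, the ATP synthase, uses the proton gradient to make ATP. Most subunits are encoded in the nucleus and must match, in assembled amounts, those made from mitochondrial DNA. Squamous carcinoma lines such as FaDu use both glycolysis and respiration. The mitochondrially encoded subunits were not analysed here.

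Subunit mRNAs as a group had nearly the same abundance in both libraries. Each ratio is the gene's share of reads in D1 over that in C1 on the log2 scale, after adding 0.5 reads and scaling the libraries with the TMM method (trimmed mean of M values). A gene was kept at 1 count per 1000000 (CPM) or more in at least 1 library. All 37 complex I rows and 81 of 86 subunit rows in total passed. Their median log2 ratio was 0.01, against 0.01 for all 13225 genes that passed. Above 0 lay 42 of the 81, beside 51.0% of all genes. Genes at 50 CPM or more, a level that 68 of the 81 reached, had a higher median of 0.08. With ratios centred on those genes, 29 of the 81 lay above 0, beside 42.6% of all genes.

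The ratios of the subunits were also closely packed. Of the 81, 77 lay between 20% lower and 25% higher in D1, which are equal steps on the log2 scale, beside 60.0% of all genes and 67.3% of the 5108 genes at 50 CPM or more. At least 25% higher in D1 were 4 subunits (19.1% of all genes), and 0 were at least 20% lower (21.0% of all genes). Among genes at 50 CPM or more these shares were 21.0% and 11.7%, and 59.6% lay above 0. At 1.5-fold, 1 subunit was higher (7.96%) and 0 were lower (10.6%), and at 2-fold there were 0 in either direction (2.4% higher and 4.54% lower). The balance turned with the scaling: in the deposited TPM 2 subunits were at least 25% higher and 8 at least 20% lower (11.6% and 31.8% of all genes), and with plain library totals 4 and 8 (12.7% and 28.9%). The middle 50% of subunits spanned 0.22 log2 units, from -0.10 to 0.12, against 0.51 for all genes and 0.42 for genes at 50 CPM or more. With 1 library per condition there was no replicate and no test, and the intervals given, exact Clopper-Pearson at the 95% level, cover counting error only. That interval lay wholly above 0 for 25 subunits (30.9% of all genes), wholly below 0 for 15 (27.2%), and held 0 for 41 (41.9%). In bulk RNA, a difference in the number of cells and one in RNA per cell cannot be told apart.

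The choice of scaling moved all genes together. The median of all genes was 0.01 under TMM, -0.11 with plain library totals and -0.14 in the deposited TPM. The subunit median lay between 0.03 below and 0.01 above that of all genes in each of the 10 settings compared. Settings that only rescale the libraries or centre the ratios on other genes move every gene by the same amount. By construction they leave this difference unchanged, so their agreement is no support for it. The deposited TPM and FPKM come close to such a shift. For single genes, 16 of the 81 subunits lay above 0 and 39 below 0 in each of the 7 scalings, units, added counts and centrings. The sign of the other 26 depended on the setting. These counts follow from the settings chosen, as the other scalings, units and centring all lowered the median of all genes from that under TMM. The 39 are those below 0 under TMM (49.0% of all genes). The 16 are those above 0 in the deposited TPM (34.8% of all genes).

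**Figure D1:**
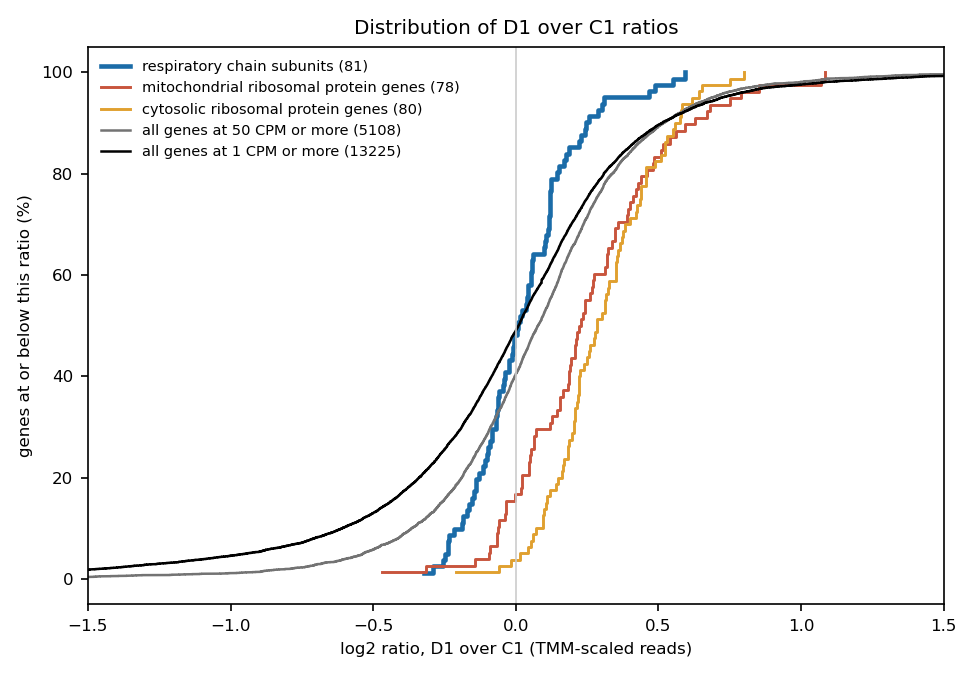
Cumulative share of genes (vertical axis, percent) at or below each log2 ratio of D1 over C1 (horizontal axis) for the 81 respiratory chain subunits, 78 mitochondrial and 80 cytosolic ribosomal protein genes, and all genes at 50 CPM or more and at 1 CPM or more. The subunit curve is the steepest and crosses 0 near its middle, while both ribosomal curves lie to the right with medians of 0.23 and 0.28.

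The 4 subunits at least 25% higher in D1 came from complexes I, III and V. They were ATP5PB, the b subunit of the ATP synthase stalk, UQCRC1, a core protein of complex III, ATP5MK, a small membrane subunit of ATP synthase, and NDUFB5, an accessory subunit of the complex I membrane arm. At the other end stood NDUFA7, an accessory subunit of the complex I matrix arm, just inside the limit with a ratio of -0.32. Just inside the upper limit was COX7A2 of complex IV at 0.31. Estimated counts were not whole for ATP5PB, NDUFB5 and NDUFA7, so some of their reads were shared with other genes or transcripts. The same holds for other genes named below, among them NDUFV2, NDUFA5, NDUFB11, NDUFB9, SDHA, UQCR10, ATP5ME and ATP5MG. Counts were whole in both libraries for 51 of the 88 rows.

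Promoter windows of ATP5PB, UQCRC1, ATP5MK and NDUFA7 are shown because nuclear respiratory genes are known targets of NRF1 and of GABP, an ETS family factor. Each window runs from 250 bases before to 50 bases after an annotated start in RefSeq (GRCh38.p14) and is printed in the direction of the gene. Capitals mark the palindromic core of the NRF1 motif or the ETS core CCGGAAG, each searched on both strands, and matches may overlap. The first run of capitals in the SDHD window is the NRF1 core. SDHD, the small membrane anchor of complex II, is added as the only one of 68 subunits with a window that held both motifs. The windows lie at chr1:111449214-111449513 on the plus strand (ATP5PB), chr3:48609597-48609896 on the minus strand (UQCRC1), chr10:103396426-103396725 on the minus strand (ATP5MK), chr19:8321326-8321625 on the minus strand (NDUFA7) and chr11:112086623-112086922 on the plus strand (SDHD).
ATP5PB: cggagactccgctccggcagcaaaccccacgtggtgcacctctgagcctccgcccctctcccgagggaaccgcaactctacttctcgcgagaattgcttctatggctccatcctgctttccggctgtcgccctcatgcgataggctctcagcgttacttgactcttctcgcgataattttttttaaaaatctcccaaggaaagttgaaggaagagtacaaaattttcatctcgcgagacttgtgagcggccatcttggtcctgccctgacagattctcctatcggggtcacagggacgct
UQCRC1: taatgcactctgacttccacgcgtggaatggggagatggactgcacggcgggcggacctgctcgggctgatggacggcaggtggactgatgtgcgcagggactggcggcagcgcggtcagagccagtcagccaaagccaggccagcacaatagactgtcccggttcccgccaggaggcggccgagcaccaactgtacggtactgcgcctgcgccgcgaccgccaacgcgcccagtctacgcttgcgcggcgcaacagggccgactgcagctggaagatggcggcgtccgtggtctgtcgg
ATP5MK: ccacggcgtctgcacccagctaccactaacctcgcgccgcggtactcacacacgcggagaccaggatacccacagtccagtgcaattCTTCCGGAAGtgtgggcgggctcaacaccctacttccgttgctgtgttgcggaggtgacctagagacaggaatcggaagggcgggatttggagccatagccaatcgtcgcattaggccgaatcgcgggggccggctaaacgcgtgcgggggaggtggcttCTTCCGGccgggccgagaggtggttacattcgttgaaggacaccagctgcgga
NDUFA7: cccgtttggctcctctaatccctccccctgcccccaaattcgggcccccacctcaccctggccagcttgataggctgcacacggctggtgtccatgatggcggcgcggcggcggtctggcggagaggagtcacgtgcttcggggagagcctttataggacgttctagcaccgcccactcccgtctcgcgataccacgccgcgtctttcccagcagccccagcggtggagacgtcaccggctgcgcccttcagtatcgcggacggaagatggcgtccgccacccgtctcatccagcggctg
SDHD: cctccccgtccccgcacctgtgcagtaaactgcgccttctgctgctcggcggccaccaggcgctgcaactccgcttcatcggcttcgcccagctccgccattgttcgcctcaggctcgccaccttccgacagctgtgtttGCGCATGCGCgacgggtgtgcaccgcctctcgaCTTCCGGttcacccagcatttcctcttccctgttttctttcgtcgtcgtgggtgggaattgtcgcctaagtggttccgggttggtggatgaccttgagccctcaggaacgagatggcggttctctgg

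The windows of ATP5PB, UQCRC1 and NDUFA7 held neither string, and ATP5MK held the ETS letters at 3 places, a pair of which overlap. Over subunits with a window, 4 of 68 (5.88%) held the NRF1 letters and 21 (30.9%) the ETS letters. Among all 10781 genes past the filter with a window the shares were 2.61% and 22%, and among all 27305 genes with a window 1.52% and 12.2%. The median ratio of the 21 subunits with the ETS letters was -0.02, and that of the 47 without was 0.01. A gene with several starts counts once if any of its windows holds the letters, and a match is not evidence of binding.

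Complex I, which oxidises NADH, was the largest group with 37 subunits, and 20 of them lay above 0 (51.0% of all genes). With plain library totals 8 did, and with the deposited TPM 5 (38.1% and 34.8% of all genes). Their median ratio was 0.01 under TMM. The 7 nuclear core subunits, which carry the flavin and the iron-sulfur clusters, had a median of 0.01, and the 30 accessory subunits also had 0.01. The matrix arm, where NADH is oxidised and ubiquinone reduced, had 10 of 16 subunits above 0 (median 0.03). The membrane arm, which pumps protons, had 10 of 20 (median -0.03).

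Core subunits differed by little between the libraries. NDUFV1, which binds NADH and the flavin, had 6066 reads in D1 and 5819 in C1, a log2 ratio of 0.15 (0.10 to 0.20), and was the highest of the core group. Its partner NDUFV2 was the lowest, with 1451 reads in D1 and 1817 in C1 and a ratio of -0.23 (-0.33 to -0.13). Both form the NADH-oxidising tip of the complex, and their intervals do not overlap. NDUFS1, the large iron-sulfur protein of that tip, had 1769 reads in D1 and 1961 in C1 (-0.06).

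Of the core subunits near the ubiquinone site, NDUFS7 had 799 reads in D1 and 917 in C1 (-0.11), and NDUFS8 had 2846 and 2999 (0.01). Both intervals held 0. NDUFS3, a core protein of the matrix arm, had 1082 reads in D1 and 1135 in C1 (0.02), also with an interval that held 0.

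Accessory subunits of complex I gave its extremes. NDUFB5 (chromosome 3, 179604794 to 179627647) had 1752 reads in D1 and 1349 in C1, a 1.38-fold higher share with a ratio of 0.47 (0.36 to 0.57). NDUFA6, a LYR-motif protein of the matrix arm, had 3191 reads in D1 and 2783 in C1 (0.29, 0.21 to 0.36). NDUFB9, another LYR-motif protein, had 4558 and 4062 (0.26), and NDUFS6, a zinc-binding subunit, 2166 and 1977 (0.22). These 4 had intervals wholly above 0.

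NDUFA7 (chromosome 19, 8308595 to 8321375) had 515 reads in D1 and 685 in C1, a ratio of -0.32 (-0.49 to -0.15). NDUFA5, an accessory subunit of the matrix arm, had 877 reads in D1 and 1100 in C1 (-0.24). NDUFB11, an X-linked subunit of the membrane arm, had 958 and 1184 (-0.22). Like NDUFV2, all 3 had intervals wholly below 0. NDUFAB1, the acyl carrier protein found in both arms, had 1494 reads in D1 and 1700 in C1 (-0.10).

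**Figure D2:**
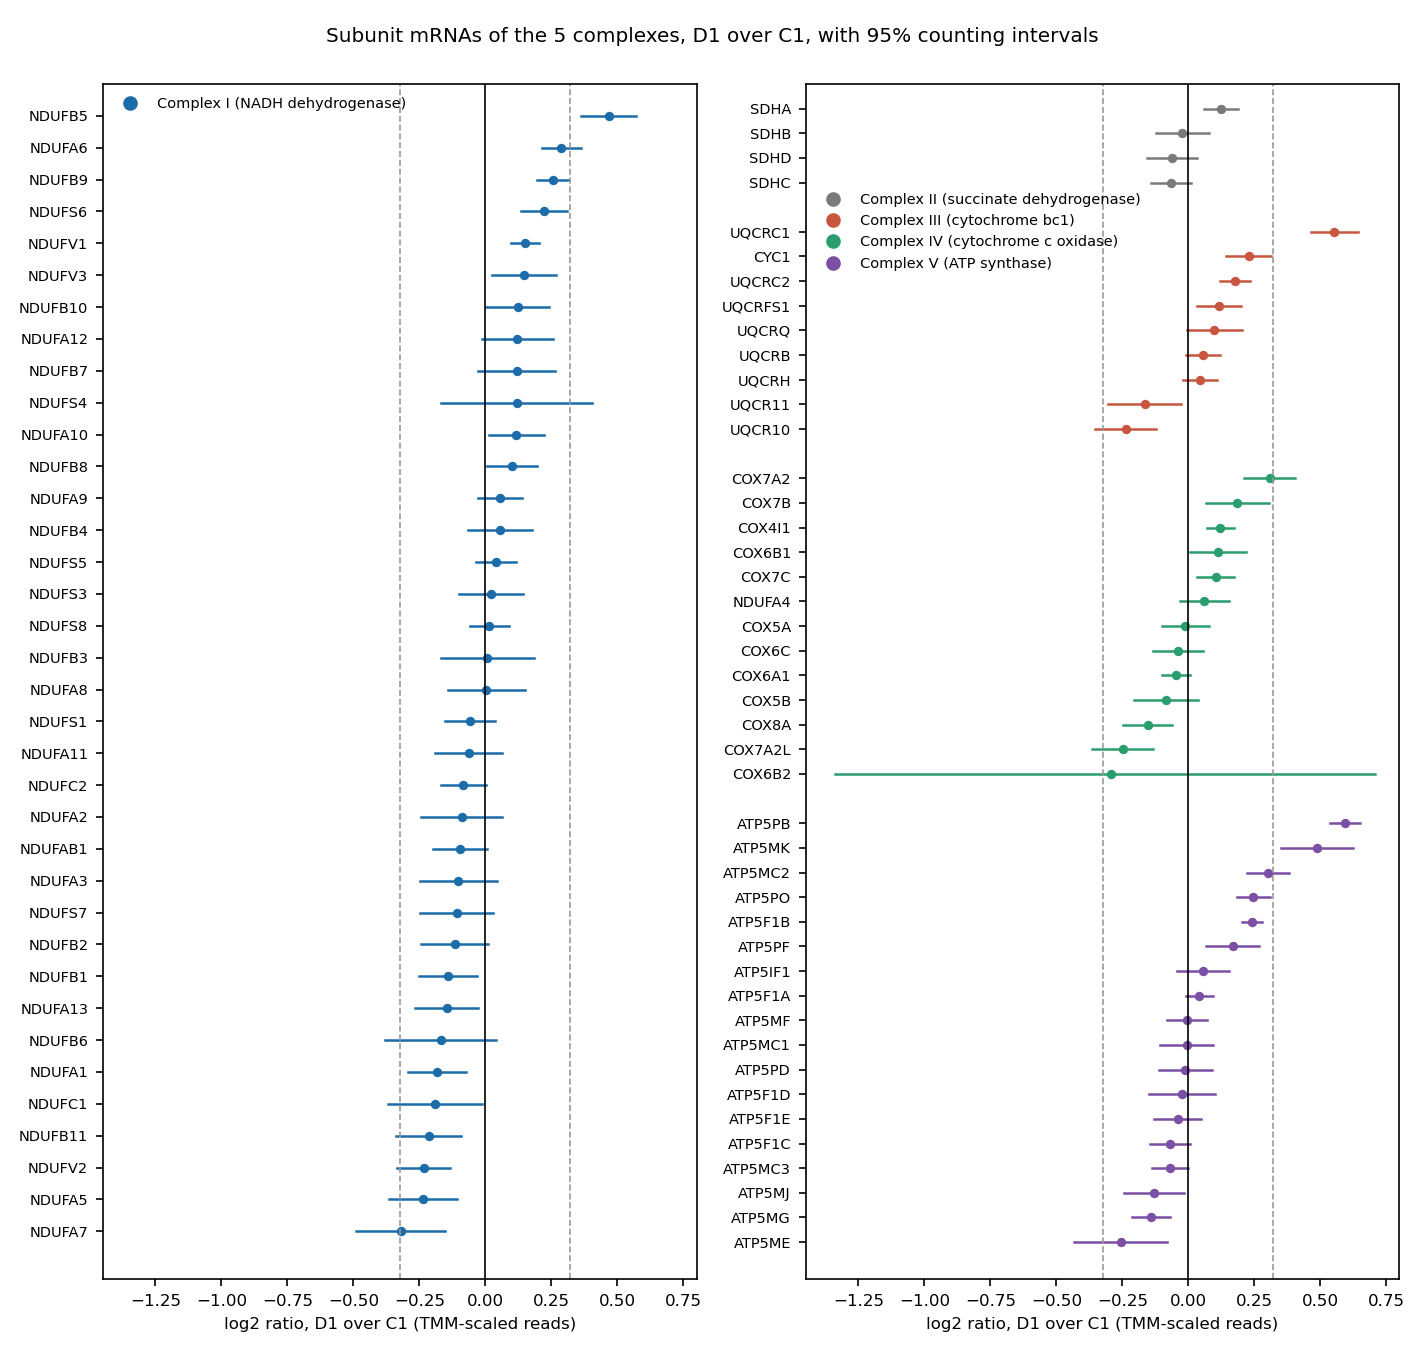
Log2 ratio of D1 over C1 (horizontal axis) for 80 of the 81 subunit genes that passed the filter, by complex. Points are ratios, lines are 95% counting intervals from 1 library each, and dashed lines mark 25% higher and 20% lower. Most points lie between the dashed lines, and ATP5PB at 0.59 and UQCRC1 at 0.55 lie farthest to the right.

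Complex II, succinate dehydrogenase, had all 4 subunits close to 0. SDHA, the flavoprotein that oxidises succinate, had 3853 reads in D1 and 3762 in C1, a ratio of 0.12 (0.06 to 0.19). SDHB, the iron-sulfur protein, had 1585 reads in D1 and 1714 in C1 (-0.02). The membrane anchors SDHC, with 2654 and 2954 reads, and SDHD, with 1784 and 1982, each had a ratio of -0.06. SDHA was the only subunit of complex II above 0 under TMM, and with the deposited TPM 0 of 4 were. Their median was -0.04.

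Complex III had the highest median of the 5 complexes, 0.10, with 7 of 9 subunits above 0 (51.0% of all genes). With plain library totals its median was -0.02 and 3 of 9 were above 0 (38.1% of all genes). Genes at 50 CPM or more had a median of 0.08 under TMM, and centred on them the complex III median was 0.02. Relative to all genes its median was 0.06 to 0.17 higher in each of the 10 settings, several of which cannot change this difference by construction. The subunits above the TMM median of complex III were the large core proteins and the redox subunits. UQCRC1 (chromosome 3, 48599002 to 48609646) had 2380 reads in D1 and 1727 in C1, a 1.47-fold higher share with a ratio of 0.55 (0.46 to 0.64). The other core protein, UQCRC2, had 5401 reads in D1 and 5085 in C1 (0.18, 0.12 to 0.23). The interval of UQCRC1 lay wholly above that of UQCRC2.

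CYC1, cytochrome c1, had 2357 reads in D1 and 2141 in C1 (0.23, 0.14 to 0.31). UQCRFS1, the Rieske iron-sulfur protein, had 2378 and 2336 (0.12). The small subunits lay lower. UQCRH, the hinge protein, had 3861 reads in D1 and 3989 in C1 (0.04), and UQCRB, a small subunit near the quinone site, had 4045 and 4144 (0.06). UQCR11 had 788 and 941 (-0.17), and UQCR10 1093 and 1372 (-0.24), both with intervals wholly below 0. UQCRHL, an intronless relative of UQCRH, had 3 reads in D1 and 1 in C1 and did not pass the filter.

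Complex IV, cytochrome c oxidase, had 6 of 13 members above 0 (51.0% of all genes) and a median of -0.01. With plain library totals 3 lay above 0 (38.1% of all genes). NDUFA4 is counted here, as its product is a subunit of complex IV despite its name. COX7A2, the widely expressed form of subunit 7A, had 1890 reads in D1 and 1624 in C1 (0.31, 0.21 to 0.41). COX7B had 1169 reads in D1 and 1094 in C1 (0.19), COX4I1, the main form of subunit 4, 6461 and 6324 (0.12), and COX6B1 1496 and 1473 (0.11).

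COX7A2L, a relative of COX7A2 that joins complexes III and IV into supercomplexes, lay on the other side of 0. It had 1094 reads in D1 and 1383 in C1 (-0.25, -0.36 to -0.13). COX8A had 1738 reads in D1 and 2057 in C1 (-0.15), and COX5B 1023 and 1155 (-0.08). COX6A1, the most abundant member per length, had 5137 and 5648 reads (-0.05).

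The tissue-restricted and hypoxia-linked forms were nearly silent. COX6B2, a testis form of COX6B1, had 16 reads in D1 and 21 in C1, so its ratio of -0.29 had an interval of -1.34 to 0.71. NDUFA4L2, a hypoxia-inducible relative of NDUFA4, had 5 and 9 reads, while NDUFA4 had 1892 and 1932. COX7A1, the heart and muscle form, and COX8C, a testis form, each had 0 reads in D1 and 1 in C1. A count of 0 allows up to 3 reads, or 0.168 CPM in D1. COX4I2, COX6A2 and COX7B2 were not analysed here.

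Complex V, the ATP synthase, had 8 of 18 members above 0 (51.0% of all genes) and a median of -0.01, with its parts on different sides. The peripheral stalk, which holds the catalytic head still against the rotor, had 3 of 4 subunits above 0 and a median of 0.21. ATP5PB (chromosome 1, 111449464 to 111462773) had 6128 reads in D1 and 4319 in C1, a 1.51-fold higher share with a ratio of 0.59 (0.54 to 0.65). It was the highest subunit of all 81 and the only 1 at least 1.5-fold higher. ATP5PO, which joins the stalk to the head, had 4506 reads in D1 and 4045 in C1 (0.25), and ATP5PF had 1701 and 1612 (0.17). ATP5PD was the other stalk subunit, with 1528 and 1639 (-0.01).

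The F1 head, where ATP is made, lay close to 0 except for its catalytic subunit. ATP5F1B, the catalytic beta subunit, had 11070 reads in D1 and 9969 in C1 (0.24, 0.20 to 0.28), the most reads of any subunit. ATP5F1A, the alpha subunit, had 6239 and 6450 (0.04). ATP5IF1, the inhibitor that stops the enzyme from running backwards, had 1654 reads in D1 and 1693 in C1 (0.06), and its interval held 0.

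The genes of the rotating c-ring encode the same mature protein with different targeting sequences, and they differed from one another. ATP5MC2 had 2740 reads in D1 and 2365 in C1 (0.30, 0.22 to 0.38). ATP5MC1 had 1528 and 1634 (-0.01), and ATP5MC3 had 3168 and 3538 (-0.07). The interval of ATP5MC2 lay wholly above those of both others. Its estimated counts were not whole numbers, so some of its reads were shared with other genes or transcripts.

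Small membrane subunits of ATP synthase, which shape its dimers and the membrane, had 1 of 5 members above 0 and a median of -0.13. That member was ATP5MK (chromosome 10, 103389050 to 103396475), with 1013 reads in D1 and 769 in C1, a ratio of 0.49 (0.35 to 0.62). ATP5ME had 473 reads in D1 and 601 in C1 (-0.25), ATP5MG 2861 and 3359 (-0.14), and ATP5MJ 1149 and 1339 (-0.13). These 3 had intervals wholly below 0. ATP5MGL, a relative of ATP5MG, had 4 reads in each library and did not pass the filter.

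The read-through genes had the most extreme values of the 88 rows. ATP5MF-PTCD1 had 189 reads in D1 and 39 in C1 (2.35, 1.86 to 2.90), and NDUFC2-KCTD14 had 4 and 25 (-2.41, -4.54 to -1.02). Both share exons with the single genes, and neither had whole counts. ATP5MF itself had 2748 reads in D1 and 2936 in C1 (-0.01), and NDUFC2 2136 and 2410 (-0.08). These rows are therefore uncertain and entered no complex.

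Levels per length differed far more between subunits of complexes I, III, IV and V than between the libraries. In the deposited TPM, complex I subunits ranged between 16.76 for NDUFS1 and 780.63 for NDUFB9 in D1, and between 19.37 for NDUFS1 and 762.40 for NDUFS5 in C1. The complex II subunits were the closest together, from 152.41 for SDHD to 180.24 for SDHB in D1 and from 153.85 for SDHA to 203.31 for SDHB in C1. Complex IV had the most abundant members, COX6A1 with 1156.32 TPM in D1 and 1326.16 in C1 and COX4I1 with 1041.25 and 1065.10. For 15 subunits the length implied by the deposited reads and FPKM was over 2000 bases, and for NDUFS1 it was 11594. The TPM of such genes depends on the transcript lengths assumed, which both libraries share.

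Summed over its subunits, complex I had 7953.85 TPM in D1 and 8698.85 in C1, and complex V 6202.11 and 6426.51. Complex IV had 5044.22 TPM in D1 and 5450.93 in C1, complex III 2022.42 and 2098.53, and complex II 648.38 and 721.97. All 5 sums were lower in D1 on the TPM scale. On TMM-scaled reads the 5 sums were higher, with log2 ratios from 0.01 for complex II to 0.14 for complex V. The order of the complexes was the same in both libraries.

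**Figure D3:**
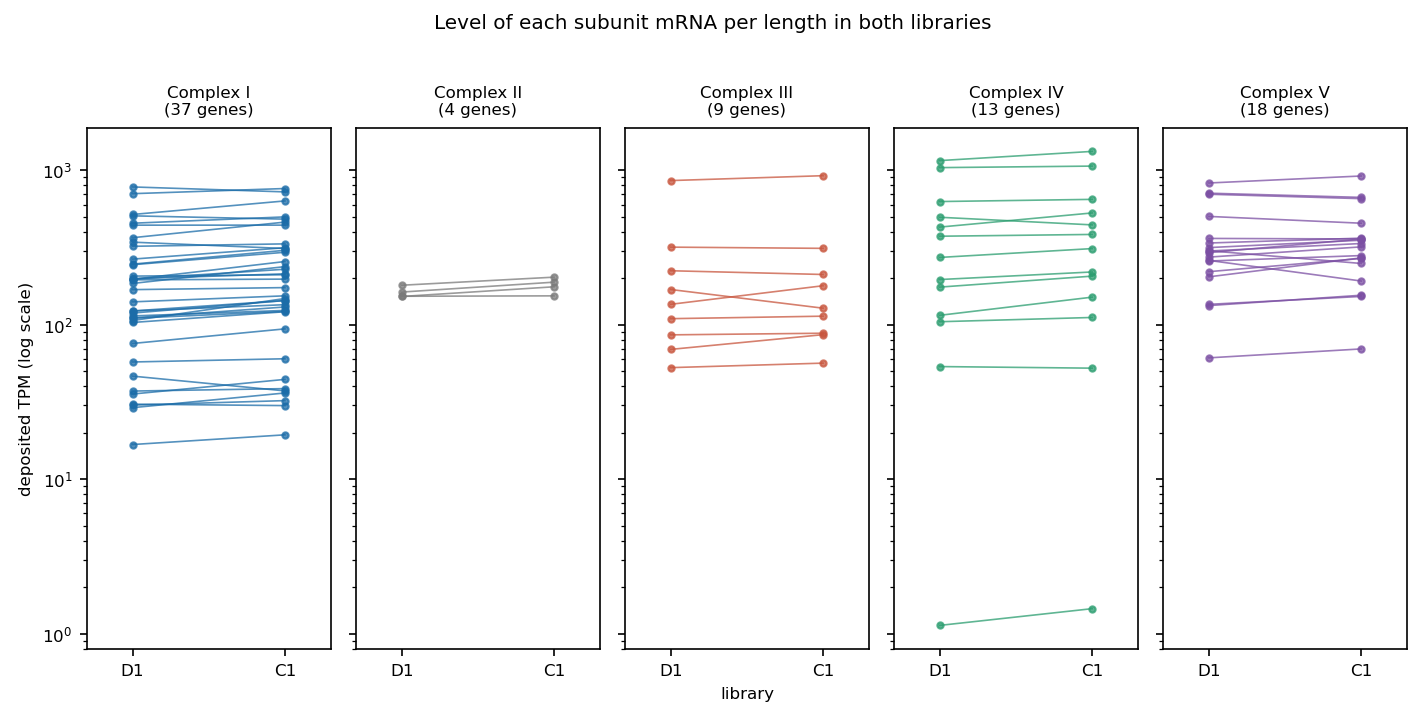
Deposited TPM (log scale) of each subunit gene past the filter in library D1 (left) and library C1 (right), with a line joining both values of a gene, by complex. The lines are nearly level, while the genes of complex I range from 16.76 to 780.63 TPM in D1.

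Subunit mRNAs are short, and length was compared with a split at the same length over abundant genes. The 48 subunits with an implied length under 1000 bases had a median ratio of -0.01, and the 33 longer ones 0.05. Among genes at 50 CPM or more, the 338 with an implied length under 1000 had a median of 0.12 and the 4770 longer ones 0.07. Among abundant genes the shorter ones thus had the higher median, and among subunits the lower. The filters differ, as subunits were kept at 1 CPM or more and 68 of the 81 reached 50 CPM. The sets also differ in more than length, and a role of length was not tested.

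Ribosomal protein genes are likewise often short and abundant, and their medians were higher than that of the respiratory chain. At least 25% higher in D1 were 19.1% of all genes under TMM and 11.6% in the deposited TPM. Above 0 lay 51.0% and 34.8% of all genes, and under TMM 59.6% of genes at 50 CPM or more. Of 80 cytosolic ribosomal protein genes past the filter, 77 lay above 0 and 34 were at least 25% higher in D1 (median 0.28), and in the deposited TPM 64 and 14 (median 0.13). Of 78 mitochondrial ribosomal protein genes, whose products make the mitochondrially encoded subunits, 65 lay above 0 and 28 were at least 25% higher (median 0.23), and in the deposited TPM 51 and 15 (median 0.07). Relative to all genes, the cytosolic median was 0.25 to 0.28 higher and the mitochondrial median 0.19 to 0.22 higher in each of the 10 settings. Several of these settings leave such differences unchanged by construction. With 1 library per condition the difference from the subunits was not tested.

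The ratios of assembly factors, which build the complexes without remaining in them, were spread more widely than those of the subunits. The distance between their lower and upper quartiles was 0.32 log2 units, against 0.22 for the subunits. Their counting intervals were also wider, with a median half-width of 0.17 against 0.10. How much of the wider spread of the assembly factors is counting error was not tested. Of 55, 35 lay above 0, 10 were at least 25% higher in D1 and 3 at least 20% lower (median 0.09), beside 51.0%, 19.1% and 21.0% of all genes. With plain library totals 24 lay above 0, 7 were higher and 8 lower (median -0.03). The shares of all genes were then 38.1%, 12.7% and 28.9%. In the deposited TPM the counts were 22, 6 and 9 (median -0.08), beside 34.8%, 11.6% and 31.8% of all genes. For complex I, 12 of 17 lay above 0 (median 0.21), from TMEM186 at -0.13 to NDUFAF4 at 0.58, which had 338 reads in D1 and 241 in C1. For complex IV, 14 of 23 lay above 0 (median 0.05), against 7 with plain library totals (median -0.07). COA7, a factor with cysteine-rich repeats, had 1992 reads in D1 and 1366 in C1 (0.63), and PET100 had 159 and 266 (-0.65).

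The smaller assembly lists also held members on both sides. For complex III, 5 of 6 lay above 0 (median 0.25), from UQCC1 at -0.07 to UQCC3 at 0.50. For complex II, 1 of 4 did (median -0.18). It was SDHAF3 with 345 reads in D1 and 232 in C1 (0.66), and the lowest was SDHAF2, which helps attach the flavin to SDHA, at -0.25. For complex V, 3 of 5 lay above 0 (median 0.14), from FMC1 at -0.56 to TMEM70, a helper of c-ring assembly, at 0.24.

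Transcriptional regulators of respiratory genes were on the higher side in D1. Of 15 listed, 13 passed the filter, all 13 lay above 0 and 7 were at least 25% higher (median 0.38), beside 51.0% and 19.1% of all genes. With plain library totals, with the deposited TPM or relative to genes at 50 CPM or more, 10 of 13 lay above 0. The shares of all genes were then 38.1%, 34.8% and 42.6%. In the deposited TPM 4 were at least 25% higher (median 0.23), beside 11.6% of all genes. With no filter the median of all 15 was 0.26, with 7 higher and 2 at least 20% lower. The shares of all genes with no filter were 22.1% and 26.1%. ESRRA, an orphan nuclear receptor that drives respiratory genes, had 692 reads in D1 and 367 in C1 (1.0, 0.82 to 1.19). PPARGC1B, a coactivator, had 177 and 103 (0.87), and NRF1 had 409 and 282 (0.63).

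MYC had 5075 reads in D1 and 3518 in C1 (0.62). The GABP subunits differed, with GABPB1 at 875 and 685 reads (0.44), GABPB2 at 443 and 408 (0.21) and GABPA, which binds DNA, at 645 and 675 (0.02). Factors of mitochondrial transcription were TFB2M (0.42), POLRMT, the mitochondrial RNA polymerase (0.26), and TFAM (0.03). The coactivator PPRC1 had a ratio of 0.38, YY1 0.17 and HIF1A, the oxygen-regulated factor, 0.05. PPARGC1A, with 0 reads in D1 and 5 in C1, and ESRRG, with 8 and 11, did not pass the filter.

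Of 16 genes for electron carriers and their synthesis, 9 lay above 0 (median 0.13). That share of 56.2% is near the 51.0% of all genes. Their median was -0.02 in the deposited TPM and -0.06 with whole counts only. CYCS, cytochrome c, had 4533 reads in D1 and 3765 in C1 (0.36, 0.30 to 0.42). The highest was COQ8A, which aids ubiquinone synthesis, with 314 and 173 (0.95), and the lowest was COQ2, which joins the ubiquinone ring to its tail, with 291 and 433 (-0.48). Of 14 citric acid cycle genes, 6 lay above 0 (42.9%, median -0.03). The highest was MDH2, malate dehydrogenase, with 6194 reads in D1 and 4238 in C1 (0.64). Of 13 genes of mitochondrial RNA and protein handling, 12 lay above 0 (51.0% of all genes), with a median of 0.22. They ran from FASTKD5 at -0.20 to FASTKD2 at 0.50, both RNA-binding proteins. With plain library totals 9 of these 13 lay above 0 (median 0.10), and in the deposited TPM 7 (median 0.07). The shares of all genes were then 38.1% and 34.8%.

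**Figure D4:**
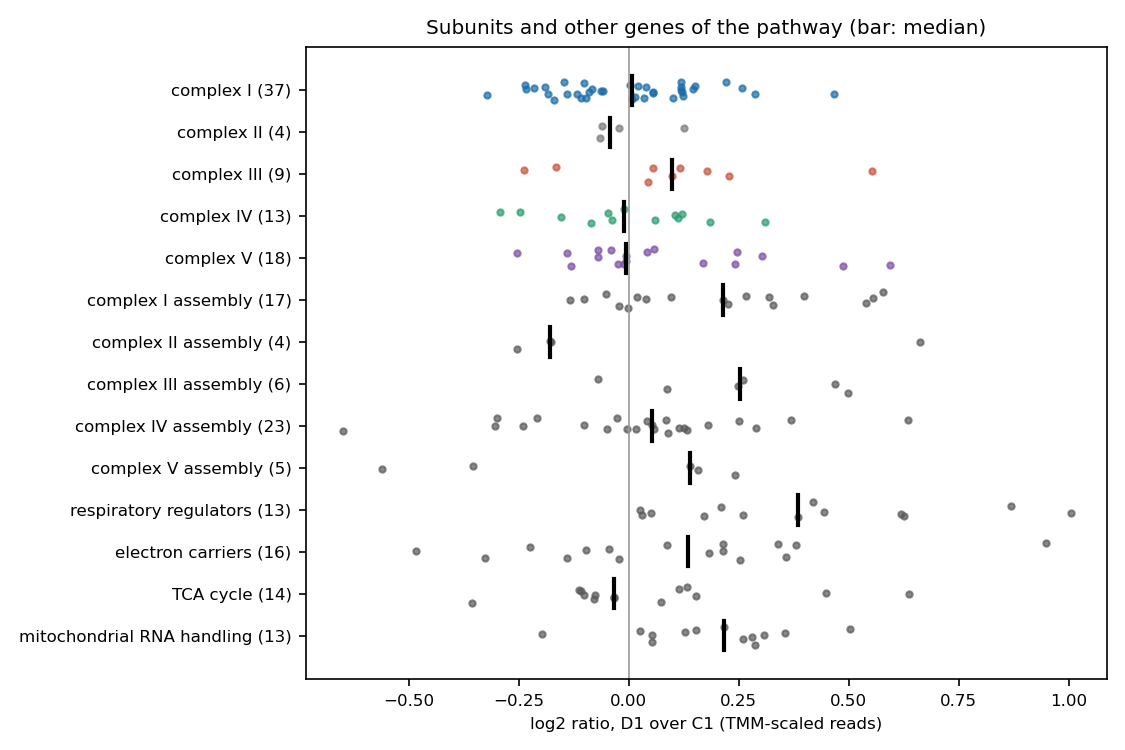
Log2 ratio of D1 over C1 (horizontal axis) for each gene past the filter, by complex and by list, with the number of genes in brackets and a bar at the median. Points are single genes. The complexes have medians between -0.04 and 0.10, and the regulators 0.38.

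Subunit genes are spread over the genome, with 81 genes on 22 chromosomes and 11 of them on chromosome 19. In GENCODE 29 (GRCh38), 11 of the 81 have a protein-coding neighbour past the filter that starts within 1000 bases on the opposite strand and runs the other way. In 7 of these 11 pairs both genes lay on the same side of 0, and in 4 of the 7 the counting interval of the neighbour held 0. The share among other neighbouring genes was not computed. NDUFB5 starts 36 bases from MRPL47, a mitochondrial ribosomal protein gene, which had 1704 reads in D1 and 1380 in C1 (0.39, 0.29 to 0.50). ATP5MK starts 134 bases from PDCD11, a ribosome biogenesis gene, which had 2267 and 1781 (0.44, 0.35 to 0.53). Both pairs thus had close ratios in the same direction.

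Other pairs went apart. NDUFB1 (-0.14) starts 20 bases from CPSF2, a factor of mRNA 3′ end formation, which had 7049 reads in D1 and 5879 in C1 (0.35, 0.30 to 0.40). UQCR10 (-0.24) starts 358 bases from ZMAT5, which had 146 and 106 (0.55, 0.18 to 0.93). The neighbours were chosen after the values were seen, and the pairs were not tested.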

How the data were processed

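The labels name total RNA and an MGI platform. Per the file headers, the authors deposited estimated counts per gene, not normalized and not always whole. TPM and FPKM are the authors' deposited values, per the file headers. The submitters' processing notes name Bowtie2, RSEM and hg38. Neither versions nor annotation is given in the sources used here. In D1 48.2% and in C1 48.9% of counts were not whole.

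Counts were rounded. Library sizes were scaled with TMM in edgeR 4.0.16 (R 4.3.3), with factors of 0.960 for D1 and 1.04 for C1, so that 1 CPM was 17.8 reads in D1 and 19.0 in C1. Ratios, exact intervals (scipy 1.17.1) and figures (matplotlib 3.10.9) followed, and the procedure was tested on simulated data. All 88 rows matched a RefSeq gene of GRCh38.p14, which gave the coordinates. Implied length is reads divided by FPKM and library total. A reading of the codes C and D by their letters was noted as provisional and used in no result.

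The members and lists were chosen with earlier results of these data known. Named were complex II and CYC1, the 4 highest and 4 lowest subunits of each other complex, complex I core subunits, isoforms, catalytic and inhibitor subunits, each regulator, and the highest and lowest gene of each other list at 5 CPM or more. Other genes were named after their values were seen: ATP5PD, ATP5PF, ATP5MF, NDUFC2, NDUFAB1, the read-through genes, CYCS and the neighbours. Some genes that the rule selects are left out of the text. Alternatives were other scalings, units, filters, added counts and whole counts only.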

Additional observations from a re-analysis of the deposited data

How the results depend on the processing

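With 1 library per condition no replicate could be left out. No paired analysis was possible because each condition has 1 library and the columns carry no replicate number. Values below are medians by complex, members above 0 and members at least 25% higher or 20% lower. With plain library totals the medians of complexes II, III, IV and V were -0.16, -0.022, -0.13 and -0.13, members above 0 in complexes I, III and IV were 8, 3 and 3, and 8 members were at least 20% lower. With the deposited FPKM the medians of complexes II to V were -0.16, -0.022, -0.13 and -0.12, members above 0 in complexes I, III and IV were 8, 3 and 2, and 6 were lower. With the deposited TPM the medians of complexes I to V were -0.14, -0.19, -0.054, -0.16 and -0.15, members above 0 in complexes I to IV were 5, 0, 3 and 2, and 2 members were higher and 8 lower. The complex III median thus changed sign in these 3 settings, which shift all genes; by construction plain totals move every ratio by the same amount. Centred on genes at 50 CPM or more, an alternative chosen after seeing the data, 12 complex I members lay above 0 and 4 members were lower. Median-of-ratios size factors (DESeq2 1.42.0) gave 1 lower member and no filter gave 3. With whole counts only, members above 0 in complexes II, III and V were 0, 4 and 4 and 2 members were higher. Fewer genes remain there, and ATP5PB and NDUFB5, both at least 25% higher under TMM, are not among them. In the other 73 comparisons, medians moved by less than the median half-width of the single-gene intervals, or counts stayed within 1.5 times. That half-width is not the counting error of a median. Among the 73 are complex I medians of -0.11 with plain library totals and -0.10 with the deposited FPKM, against 0.01 under TMM. Depth limits genes of few reads, such as COX6B2.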
